A study of Mus musculus with 4 samples.

Results

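Serum amyloid A and other acute phase genes were followed in inflamed mouse skin as 6 genes: Saa1, Saa2, Saa3, Hp, Orm1 and Cp. The genes were listed by name, with earlier results of these data known, and all 6 were found among the 18193 genes measured. For a gene with several probe sets, the one whose log2(signal + 16) averaged highest over the 4 arrays stands for the gene. Expression arrays of the 3′ type carried RNA from skin: 2 arrays from MC903-treated skin and 2 from skin given the vehicle, ethanol. MC903 (calcipotriol) is an analogue of vitamin D, and it causes a dermatitis-like inflammation when put on mouse skin. All mice were female wild type BALB/c, with no age given in the labels. Mice of both groups had been sensitised on the ear skin with ovalbumin, an egg-white protein, together with MC903, and had then received ovalbumin by mouth. The groups differed in what was put on the skin afterwards, MC903 or ethanol, before a second oral dose, so the vehicle mice had also been exposed to MC903 during sensitisation. The labels do not name the skin site of this later treatment. Whether the arrays of a group came from separate animals is not in the labels. The p-values below therefore cover only the spread between these samples, and that spread may be technical.

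Acute phase proteins are plasma proteins whose production changes in inflammation. Most are made by the liver, where interleukin 6 acting through STAT3 and interleukin 1 acting through NF-kB and C/EBP factors switch their genes on. Several are also made locally, in epithelium, macrophages and fat. Serum amyloid A proteins bind lipids and attract leukocytes, haptoglobin captures free haemoglobin, orosomucoid carries small molecules, and ceruloplasmin carries copper and oxidises iron.

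The 3 serum amyloid genes lie together on mouse chromosome 7, in the order Saa3, Saa4, Saa1, Saa2 in the RefSeq gene table of GRCm38.p6. Cp lies on chromosome 3, Orm1 on chromosome 4 beside Orm3 and Orm2, and Hp on chromosome 8. The promoters of Saa1, Saa2 and Saa3 are shown because these genes shared a pattern over the arrays and because Saa1 and Saa2 are close copies. They are the 250 bases before each gene's start, 5′ to 3′ on the gene's own strand, from RefSeq (GRCm38.p6). Saa1 is at chr7:46742981-46743230 on the minus strand, Saa2 at chr7:46751583-46751832 on the plus strand, and Saa3 at chr7:46715677-46715926 on the minus strand. Capitals mark matches to 2 motifs searched on both strands, the C/EBP motif TTNNGNAA and the NF-kB motif written as GGG and CC with any 5 bases between.
Saa1: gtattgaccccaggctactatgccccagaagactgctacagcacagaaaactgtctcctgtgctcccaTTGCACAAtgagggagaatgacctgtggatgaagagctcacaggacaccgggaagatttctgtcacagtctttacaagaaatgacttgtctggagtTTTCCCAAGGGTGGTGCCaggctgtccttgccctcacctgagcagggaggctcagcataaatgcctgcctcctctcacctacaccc
Saa2: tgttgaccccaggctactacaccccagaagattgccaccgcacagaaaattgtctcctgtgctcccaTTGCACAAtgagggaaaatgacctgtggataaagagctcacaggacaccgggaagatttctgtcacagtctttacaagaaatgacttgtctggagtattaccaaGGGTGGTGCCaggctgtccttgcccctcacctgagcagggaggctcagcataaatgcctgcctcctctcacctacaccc
Saa3: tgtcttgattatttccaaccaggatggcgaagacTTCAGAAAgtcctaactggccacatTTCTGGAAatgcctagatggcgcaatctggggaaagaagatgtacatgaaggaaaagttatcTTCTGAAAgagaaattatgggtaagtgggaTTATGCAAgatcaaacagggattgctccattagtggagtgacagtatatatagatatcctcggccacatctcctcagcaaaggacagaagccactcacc
The table held promoters for 4 of the 6 genes. Aligned over 251 columns, the Saa1 and Saa2 promoters were 94.8% identical, while Saa3 was 48.9% identical to Saa1 and 47.9% identical to Saa2. Saa1 held 2 C/EBP matches, Saa2 had 1 and Saa3 had 4. A match TTGCACAA, read on the given strand, was shared by Saa1 at -182 to -175 and Saa2 at -183 to -176, counted back from the gene's start. The second Saa1 match, at -86 to -79, directly adjoined its NF-kB match at -78 to -69, with no base in common. Saa2 held the NF-kB letters at -79 to -70, and Saa3 held none. A STAT motif, TTC and GAA with any 3 bases between, was found in none of the 3. Of 32851 promoters of this length, 36.8% held the C/EBP motif, 45.8% the NF-kB motif and 7.02% the STAT motif. The letters are therefore common, and a match is a description of the sequence only.

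Saa1, a lipid-binding acute phase protein of plasma, had signals of 2679 and 168 on the MC903 arrays, against 32.7 and 47.1 on the vehicle arrays. Both MC903 arrays lay above both vehicle arrays, and MC903 replicate 1 stood far above MC903 replicate 2. On the log2(signal + 16) scale the difference was 3.67 ± 1.33 (limma's moderated standard error, 2 arrays against 2). Its unadjusted p was 0.047, and limma with Benjamini-Hochberg adjustment over all genes gave an adjusted p of 0.322. Values are deposited signals in linear units, scaled by the authors. In RNA from whole skin, more cells of a type and more RNA per cell cannot be told apart.

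A second Saa1 probe set gave nearly the same picture, with 2802 and 158 on the MC903 arrays, against 22.6 and 25.4 on the vehicle arrays. Its difference was 4.13, and the limma adjusted p (Benjamini-Hochberg over all probe sets) was 0.379. In the RefSeq table the accession behind the first probe set belongs to Saa2, and that behind the second belongs to Saa1. The first also carries the suffix s, which marks possible binding of related transcripts. Signal from Saa1 and Saa2 may therefore be mixed in the first probe set, and the values of the second are the ones tied to Saa1 by accession.

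Saa2, the close relative of Saa1, had 347 and 64.05 on the MC903 arrays, against 41.0 and 23.9 on the vehicle arrays. The groups did not overlap, but MC903 replicate 2 was less than 2-fold above vehicle replicate 1. Vehicle replicate 2 also lay within the range of 1.55 to 24.0 covered by control probe sets for bacterial (TrpnX) transcripts, a guide to background. In the second Saa1 probe set, vehicle replicate 1 at 22.6 lay within that range too, and vehicle replicate 2 at 25.4 was just above it. For Saa2 itself, the values gave the following. The difference was 1.84 ± 0.78, with a limma adjusted p (Benjamini-Hochberg) of 0.368. The single Saa2 probe set carries the suffix x, another mark of possible cross-hybridisation.

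Saa3, the form known in mice for production outside the liver, as in macrophages and fat, had 2712 and 215 on the MC903 arrays, against 116 and 44.55 on the vehicle arrays. Both MC903 arrays were again above both vehicle arrays, with replicate 1 well above the other array of its group. The difference was 3.15 ± 1.28, and the limma adjusted p (Benjamini-Hochberg) was 0.357. The remaining family member, Saa4, which is made constitutively by the liver, had 40.8 and 6.41 on the MC903 arrays, against 6.10 and 4.27 on the vehicle arrays. A second Saa4 probe set had 7.25 and 18.5 on the MC903 arrays, against 5.48 and 2.65 on the vehicle arrays. The MC903 arrays were above the vehicle arrays without overlap in both Saa4 probe sets, but only 40.8 exceeded the top of the TrpnX range.

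**Figure D1:**
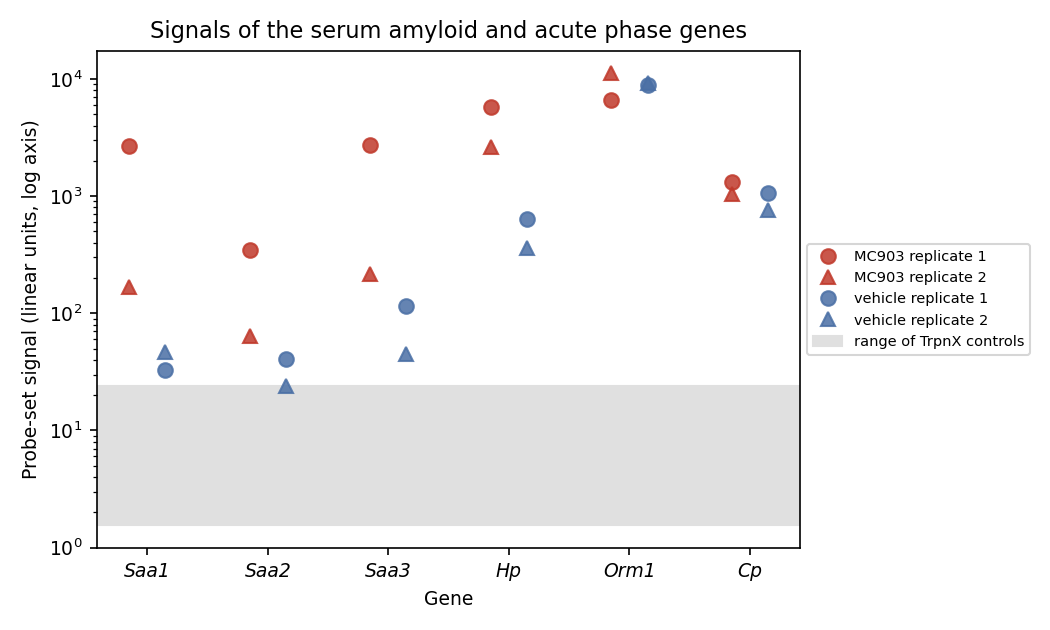
Signal of each gene on every array (linear units on a log axis, red for MC903, blue for vehicle; circles replicate 1, triangles replicate 2), with the TrpnX control range of 1.55 to 24.0 shaded. Saa1, Saa2, Saa3 and Hp were higher on both MC903 arrays than on both vehicle arrays, while the groups of Orm1 and Cp overlapped.

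Hp encodes haptoglobin, the plasma protein that binds free haemoglobin. Its signals were 5725 and 2643 on the MC903 arrays, against 633 and 361 on the vehicle arrays. The groups were widely separated, and both MC903 arrays shared the difference: the closest MC903 and vehicle arrays were 4.10-fold apart on the log2(signal + 16) scale. The difference was 2.98 ± 0.49, with an unadjusted p of 0.00277 and a limma adjusted p (Benjamini-Hochberg) of 0.177. With a limma prior variance that follows the signal, the adjusted p was 0.05035, the lowest of the 6 genes, and still above the threshold of 0.05. With that prior it was 0.0493 without MC903 replicate 1 and 0.0098 without MC903 replicate 2, but 0.253 without vehicle replicate 1 and 0.392 without vehicle replicate 2.

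Orm1 encodes orosomucoid, or alpha-1-acid glycoprotein, a carrier of small molecules in plasma. Its signals were 6578 and 11173 on the MC903 arrays, against 8893 and 9273 on the vehicle arrays. Orm1 was bright in all the skin samples, and the MC903 arrays lay on either side of the vehicle arrays. The difference was -0.08 ± 0.30 (limma adjusted p 0.920, Benjamini-Hochberg). Its sign rested on 1 array, since it was 0.30 without MC903 replicate 1 and -0.46 without MC903 replicate 2. The neighbouring copies Orm2 and Orm3 were dim. Orm2 had 3.16 and 30.6 on the MC903 arrays, against 13.9 and 14.1 on the vehicle arrays. Orm3 had 24.5 and 4.13 on the MC903 arrays, against 4.99 and 1.34 on the vehicle arrays.

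Cp encodes ceruloplasmin, the copper-carrying ferroxidase. Its signals were 1313 and 1033 on the MC903 arrays, against 1063 and 766 on the vehicle arrays. MC903 replicate 2 fell between the vehicle arrays, so the groups overlapped. The difference was 0.36 ± 0.25 (limma adjusted p 0.537, Benjamini-Hochberg). Cp was measured by 8 probe sets, whose differences ran from -0.50 to 0.45, with 5 above 0 and 3 below. The groups did not overlap in 3 of them, 2 higher and 1 lower, beside 19.1% of all probe sets higher and 26.9% lower. One of these had 378.5 and 407.6 on the MC903 arrays, against 332.6 and 240.3 on the vehicle arrays, a difference of 0.45. Another had 73.99 and 109.3 on the MC903 arrays, against 131.5 and 137.8 on the vehicle arrays, a difference of -0.50. The Cp probe sets thus gave no single direction.

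**Figure D2:**
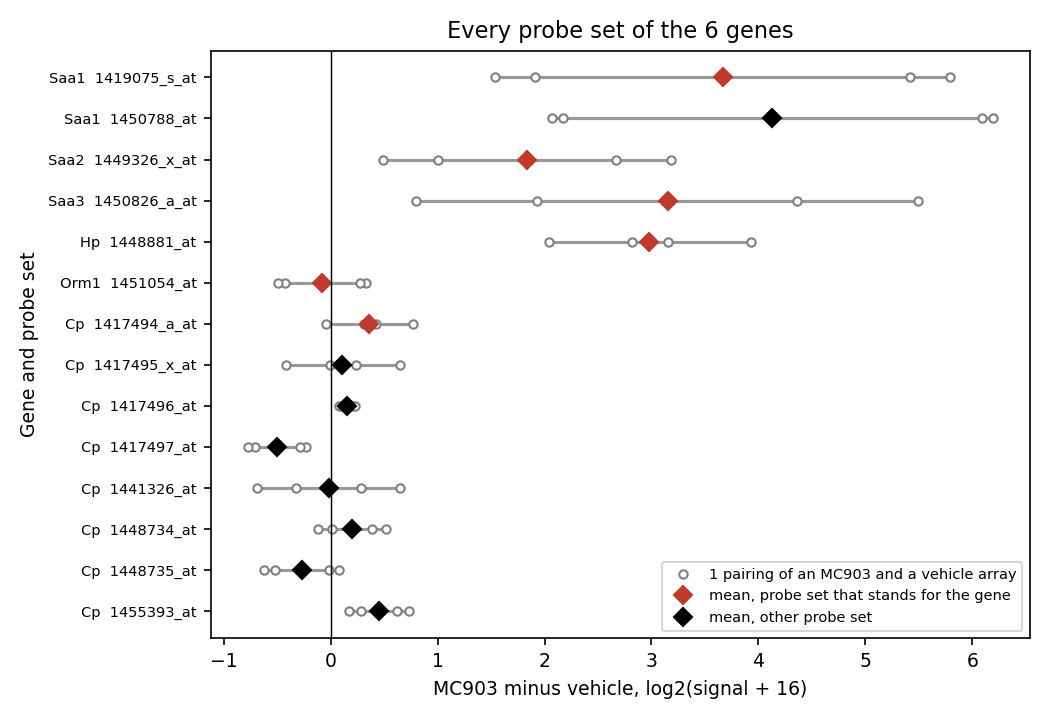
Difference of MC903 minus vehicle on the log2(signal + 16) scale for all 14 probe sets of the 6 genes; diamonds are means (red for the probe set that stands for the gene) and open circles the 4 pairings across the groups. All pairings lay above 0 for Saa1, Saa2, Saa3 and Hp, while the 8 Cp probe sets ran from -0.50 to 0.45.

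None of the 6 genes passed the limma test with Benjamini-Hochberg adjustment over 18193 genes, and neither did any other gene (0 of 18193, 0%). The smallest adjusted p of any gene was 0.0561. At an unadjusted p under 0.05, 2 of the 6 genes passed, Saa1 and Hp, both higher in MC903 skin. Over all genes 6.82% passed upward at that level and 8.39% downward. With the prior that follows the signal, 0 of the 6 passed after adjustment, beside 0.539% of all genes higher and 0.385% lower. Both MC903 arrays were above both vehicle arrays for 4 of the 6 genes, beside 21.6% of all genes, and below for none of the 6, beside 28.2%. A difference of at least 2-fold in all 4 pairings was found for Saa1 and Hp, 2 of the 6, beside 1.16% of all genes. Of the 14 probe sets, 7 were higher without overlap, beside 19.1% of 45037 probe sets, and 1 was lower, beside 26.9%. The median difference was 2.41 over the 6 genes and -0.04 over all genes. The members were chosen with earlier results of these data known, so these shares are a description and not a test. With 2 arrays against 2, the smallest two-sided p of an exact permutation test is 0.333. Precision is limited by how few arrays there are.

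Among the 6 genes, Saa1, Saa3 and Saa2 differed most between the 2 MC903 arrays. MC903 replicate 1 exceeded replicate 2 by 3.87 on the log2(signal + 16) scale for Saa1, which ranked 4 of 18193 genes in that difference. For Saa3 it exceeded it by 3.56, at rank 7, and for Saa2 by 2.18, at rank 59. Hp differed between them by 1.11, at rank 473. The median absolute difference between these arrays over all genes was 0.26, and between the vehicle arrays it was 0.19. Against the vehicle mean, the difference of Saa1 was 5.60 on replicate 1 and 1.73 on replicate 2. That of Saa2 was 2.93 and 0.75, that of Saa3 was 4.93 and 1.37, and that of Hp was 3.54 and 2.43, in the same order. Each of these genes was thus higher on either MC903 array taken alone, with the serum amyloid genes less evenly so than Hp. With the prior that follows the signal and MC903 replicate 2 left out, limma adjusted p-values were 0.00316 for Saa1, 0.0224 for Saa2 and 0.0111 for Saa3. With MC903 replicate 1 left out they were 0.127, 0.419 and 0.292 in the same order. The lone array is then assumed to vary like the vehicle group.

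**Figure D3:**
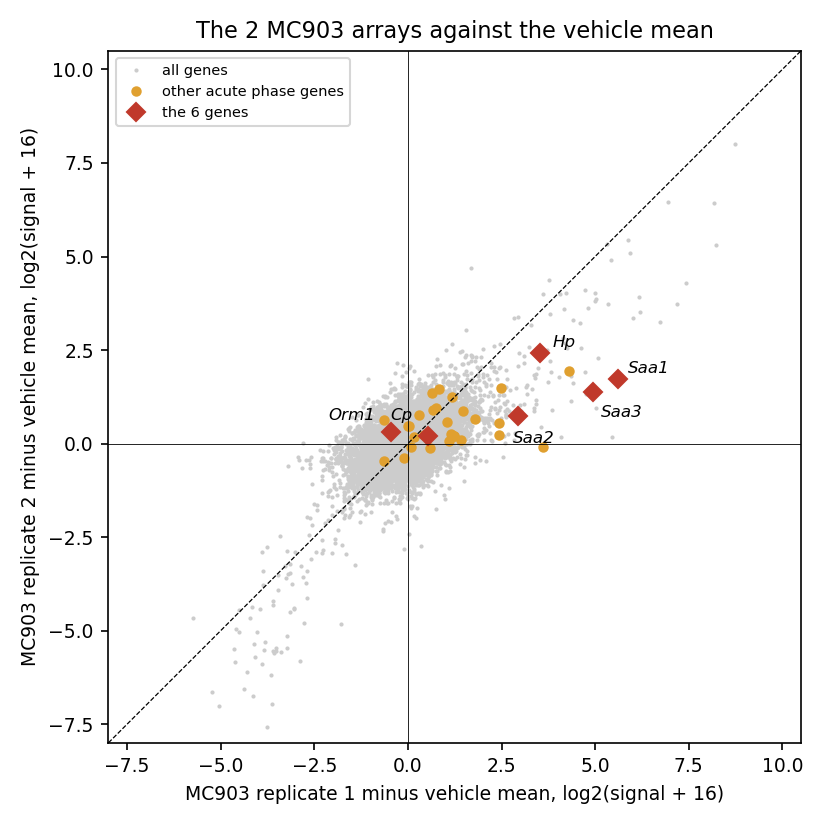
Difference of each MC903 array from the vehicle mean on the log2(signal + 16) scale, replicate 1 on the x axis and replicate 2 on the y axis, for all 18193 genes (grey), other acute phase genes (orange) and the 6 genes (red); the dashed line marks equal differences. Saa1 at 5.60 and 1.73 and Saa3 at 4.93 and 1.37 lay far below the line, while Hp at 3.54 and 2.43 lay nearer to it.

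Profiles over the 4 arrays were compared by the root mean square distance between log2 values centred on each gene's mean. The 4 arrays are few, so likeness here says little beyond differences of similar size between the arrays. Among the 6 genes, Saa1 and Saa3 were 0.60 apart and Saa2 and Hp 0.692, while Orm1 and Cp, which varied little, were 0.486 apart. The genes closest to Saa1 were Ccl3, a chemokine, at 0.350, Cxcl5, a neutrophil-attracting chemokine, at 0.385, and Timp1, a metalloproteinase inhibitor, at 0.394. Osm, an interleukin 6 family cytokine, lay 0.053 from Saa2, followed by Cd163 at 0.159 and Ccl6 at 0.171. Closest to Saa3 were the metalloproteinase Mmp19 at 0.319, Timp1 at 0.355 and Il6 at 0.388. Closest to Hp were the cytokine Il24 at 0.242, Grp, which encodes an itch-related neuropeptide, at 0.267, and Sprr2k, a cornified envelope gene, at 0.272. Osm had 452 and 85.8 on the MC903 arrays, against 58.0 and 39.7 on the vehicle arrays. Sprr2k had 860 and 543 on the MC903 arrays, against 83.5 and 71.9 on the vehicle arrays. The neighbours were picked for likeness on these same 4 arrays, so a shared pattern follows from the choice and is no separate result. MC903 replicate 1 exceeded replicate 2 by 1.60 for Il24, 1.57 for Grp and 0.65 for Sprr2k, against 1.11 for Hp.

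Among other acute phase genes, 28 of the 33 listed were measured. None passed the adjusted test, 10 were higher and 0 lower at an unadjusted p under 0.05, and 17 were higher on both MC903 arrays than on both vehicle arrays. Over all genes, 6.82% were higher and 8.39% lower at that p, and 21.6% were higher without overlap. Their median difference was 0.74, against -0.04 for all genes. Lcn2, the siderophore-binding lipocalin 2, had 6213 and 1187 on the MC903 arrays, against 276 and 327 on the vehicle arrays. It was the only gene of the list at least 2-fold higher in every pairing, with a difference of 3.11 ± 0.82 (limma adjusted p 0.250, Benjamini-Hochberg). Serpina3n, a serine protease inhibitor, had 4741 and 2363 on the MC903 arrays, against 1187 and 574 on the vehicle arrays. Its groups were also apart, with a difference of 2.0 ± 0.51 (limma adjusted p 0.243, Benjamini-Hochberg). Hpx, the haem-binding hemopexin, had 625 and 33.6 on the MC903 arrays, against 31.1 and 43.3 on the vehicle arrays. Hpx was high on MC903 replicate 1 alone, so its groups overlapped. Apcs, Fgb, Fgg, Itih4 and Pzp, known from the liver, did not exceed the top of the TrpnX range, 24.0, on any array.

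Among the cytokines, receptors, signalling genes and transcription factors tied to the induction of acute phase genes, 31 of the 34 listed were measured. None passed the adjusted test, 10 were higher and 1 lower at an unadjusted p under 0.05, and 21 were higher without overlap against 3 lower. Over all genes, 6.82% were higher and 8.39% lower at that p, and 21.6% were higher and 28.2% lower without overlap. The counts include Socs3 and Nfkbia, which are feedback inhibitors of this signalling and were both higher without overlap. Il6, the main inducer of the hepatic response, had 818 and 128 on the MC903 arrays, against 37.3 and 15.4 on the vehicle arrays. Its value on vehicle replicate 2 lay within the TrpnX range. Il1b, the inflammasome-processed interleukin 1 beta, had 2898 and 592 on the MC903 arrays, against 151 and 171 on the vehicle arrays. Both were at least 2-fold higher in every pairing and, like the serum amyloid genes, higher on MC903 replicate 1 than on replicate 2. Their differences were 3.08 ± 0.91 for Il6 and 2.91 ± 0.79 for Il1b, with limma adjusted p-values (Benjamini-Hochberg) of 0.272 and 0.253. Among the other cytokines measured, Osm (difference 1.77), Il1a (0.88) and Il11 (0.42) were higher without overlap. Lif (-0.57) was lower without overlap, and Tnf (0.01) and Il17a (0.21) overlapped. Stat3, which carries the interleukin 6 signal, had 4068 and 3047 on the MC903 arrays, against 2007 and 2215 on the vehicle arrays. Its difference was 0.74 ± 0.21, smaller than those of Il6 and Il1b. The C/EBP genes differed less still, with 0.30 ± 0.15 for Cebpb and 0.31 ± 0.16 for Cebpd.

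Of 12 listed receptors and carriers of serum amyloid A and orosomucoid, 9 were measured. At an unadjusted p under 0.05, 0 of the 9 passed, beside 6.82% of all genes higher and 8.39% lower. Fpr2, a formyl peptide receptor that binds serum amyloid A, had 657 and 111 on the MC903 arrays, against 52.7 and 46.4 on the vehicle arrays. It was the only one of the 9 higher without overlap, beside 21.6% of all genes. Its difference was 2.16 ± 0.83 (limma adjusted p 0.340, Benjamini-Hochberg). Lrp1 was the only gene of the 9 lower without overlap, beside 28.2% of all genes. The ATP-gated channel P2rx7 had 254 and 159 on the MC903 arrays, against 268 and 229 on the vehicle arrays, and its groups overlapped. The median difference of the list was -0.05.

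Of 30 listed genes that handle haemoglobin, iron and copper, 28 were measured, 13 were higher without overlap and 6 lower. Over all genes, 21.6% were higher without overlap and 28.2% lower. Lcn2, Hpx, Hamp, Mt1, Mt2 and Steap4 are also among the other acute phase genes, so the counts of these lists are not separate. Cd163, the macrophage receptor for haptoglobin bound to haemoglobin, had 7891 and 2094 on the MC903 arrays, against 1395 and 1163 on the vehicle arrays. Its difference was 1.66 ± 0.67 (limma adjusted p 0.354, Benjamini-Hochberg), and replicate 1 was again the higher MC903 array. Hmox1, haem oxygenase 1, which breaks down haem, had 1500 and 1604 on the MC903 arrays, against 871 and 855 on the vehicle arrays. The arrays of each group were close together, and the difference was 0.83 ± 0.15 (limma adjusted p 0.190, Benjamini-Hochberg). Slc40a1, the iron exporter ferroportin, was chosen after its values were seen, as the only gene of these 4 lists to pass with the prior that follows the signal. It had 1813 and 1910 on the MC903 arrays, against 3573 and 3514 on the vehicle arrays. Its difference was -0.92 ± 0.15, with limma adjusted p-values (Benjamini-Hochberg) of 0.178 with the constant prior and 0.0321 with the prior that follows the signal.

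**Figure D4:**
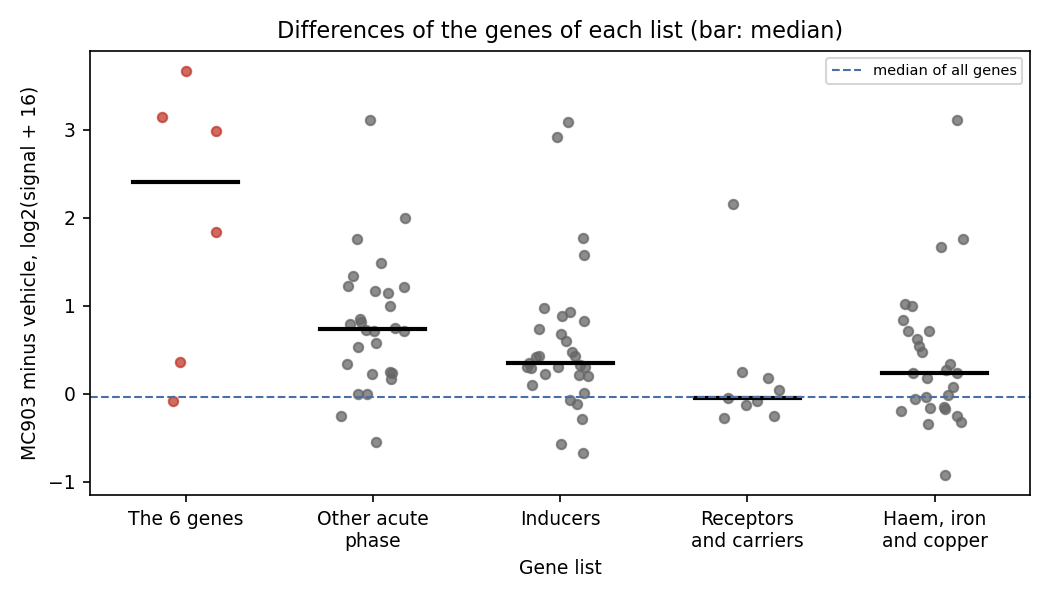
Difference of MC903 minus vehicle on the log2(signal + 16) scale for each gene (points) of the 6 genes and of 4 gene lists, with the list median as a black bar and the median of all genes, -0.04, as a dashed line. The medians were 2.41 for the 6 genes, 0.74 for other acute phase genes, 0.35 for inducers, -0.05 for receptors and carriers, and 0.24 for haemoglobin, iron and copper genes.

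Markers of the cell types that skin or its attached tissue can hold were followed beside the 6 genes, as signals summed over each list. For the counts without overlap below, the shares over all genes were 21.6% higher and 28.2% lower. Keratinocyte markers, 10 of 10 measured, were above the TrpnX range on all arrays and summed to 259892 and 261054 on the MC903 arrays, against 235613 and 223208 on the vehicle arrays. Krt1, a keratin of differentiating epidermis, had 31840 and 30964 on the MC903 arrays, against 11798 and 13797 on the vehicle arrays. Sfn, an epidermal 14-3-3 protein, had 7131 and 9547 on the MC903 arrays, against 4714 and 5584 on the vehicle arrays. Both were higher without overlap, as were 7 of the 10 genes in all, while Krt15 and Trp63 were lower without overlap. The median difference of the list was 0.12.

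Hepatocyte markers, 11 of 12 measured, summed to 796 and 1217 on the MC903 arrays, against 483 and 727 on the vehicle arrays. Both MC903 sums were above both vehicle sums, but Serpina1b was the largest part of the sum on every array, so this order leans on that gene. The median difference of the list was 0.24. Of the 11 genes, 4 were higher without overlap, Serpina1b, Tat, Hamp and Ahsg, and 1, Apoa2, was lower. Serpina1b, a protease inhibitor gene with close copies, had 508 and 536 on the MC903 arrays, against 179 and 258 on the vehicle arrays, a difference of 1.22 ± 0.23 (limma adjusted p 0.190, Benjamini-Hochberg). Tat, a tyrosine-degrading enzyme, had 23.7 and 62.4 on the MC903 arrays, against 9.19 and 6.99 on the vehicle arrays. Ttr, Ahsg and Fgb did not exceed the top of the TrpnX range on any array. Alb, the albumin gene, had 38.8 and 66.1 on the MC903 arrays, against 49.0 and 64.05 on the vehicle arrays. The Alb groups overlapped, unlike those of Serpina1b and Tat.

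Neutrophil markers, 12 of 14 measured, summed to 71866 and 12355 on the MC903 arrays, against 1802 and 2391 on the vehicle arrays. Like Saa1 and Saa3, this sum was far higher on MC903 replicate 1 than on replicate 2. Most of it came from S100a8 and S100a9, which keratinocytes can also express. S100a8 had 36943 and 5891 on the MC903 arrays, against 422 and 732 on the vehicle arrays. S100a9 had 26482 and 4082 on the MC903 arrays, against 253 and 466 on the vehicle arrays. Both were higher on replicate 1 than on replicate 2 of MC903. Without S100a8, S100a9 and Lcn2, a choice made after the values were seen, the other 9 summed to 2229 and 1195 on the MC903 arrays, against 851 and 867 on the vehicle arrays, and 3 of the 9 were higher without overlap. These 3 were the receptor genes Cxcr2 and Csf3r and the metalloproteinase gene Mmp8. Mmp8 had 150.5 and 43.1 on the MC903 arrays, against 31.0 and 3.17 on the vehicle arrays. Ngp, Camp, Ltf, Elane, Mpo and Mmp9 overlapped between the groups.

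Macrophage markers, 12 of 12 measured, summed to 58458 and 35086 on the MC903 arrays, against 25540 and 24073 on the vehicle arrays. Of these, 11 were higher without overlap, and Marco did not exceed the top of the TrpnX range on any array. The mannose receptor Mrc1 had 14284 and 4941 on the MC903 arrays, against 3829 and 2509 on the vehicle arrays. Adipocyte markers, 8 of 10 measured, summed to 21173 and 30987 on the MC903 arrays, against 17198 and 15806 on the vehicle arrays, with 6 higher without overlap. Retn, the adipokine resistin, had 574 and 1372 on the MC903 arrays, against 487 and 404 on the vehicle arrays. Cidec, a lipid droplet protein, had 276 and 602 on the MC903 arrays, against 258 and 181 on the vehicle arrays. Unlike the serum amyloid genes, these and the sum were higher on MC903 replicate 2 than on replicate 1.

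Skeletal muscle markers, 7 of 7 measured, summed to 10843 and 43132 on the MC903 arrays, against 58332 and 36527 on the vehicle arrays. Myh1, a fast myosin, had 2206 and 13284 on the MC903 arrays, against 19700 and 14511 on the vehicle arrays. Mb, myoglobin, had 1262 and 5012 on the MC903 arrays, against 9353 and 6614 on the vehicle arrays. The sum and both genes were lowest on MC903 replicate 1, the array with the highest serum amyloid signals. Myh1 and Mb were the only 2 of the 7 that were lower without overlap. The other muscle genes overlapped, and Myh4 was lowest on vehicle replicate 2, with 578 against 1307 on MC903 replicate 1. Hair shaft markers, 8 of 9 measured, summed to 1686 and 1006 on the MC903 arrays, against 24295 and 41924 on the vehicle arrays, and 8 of 8 were lower without overlap. Krtap8-1, a hair keratin-associated protein, had 694 and 139 on the MC903 arrays, against 11821 and 18217 on the vehicle arrays. Krt33b, a hair keratin, had 17.9 and 54.7 on the MC903 arrays, against 1189 and 2679 on the vehicle arrays. Hair genes were thus low on both MC903 arrays. Fibroblast markers, 8 of 8 measured, summed to 77709 and 74135 on the MC903 arrays, against 91683 and 83925 on the vehicle arrays. The collagen genes Col1a1 and Col1a2 were lower without overlap, with a difference of -0.70 ± 0.17 and -0.46 ± 0.17 on the log2(signal + 16) scale. Col3a1, also a collagen gene, overlapped, with a difference of -0.02. Of the 8 fibroblast genes, 4 were lower without overlap and 0 higher. Endothelial markers, 6 of 6 measured, summed to 2811 and 2403 on the MC903 arrays, against 2254 and 1943 on the vehicle arrays. Cdh5 and Pecam1, of endothelial junctions, were higher without overlap, with a difference of 0.55 ± 0.19 and 0.53 ± 0.28. In all, 3 of the 6 endothelial genes were higher without overlap, and 1, Kdr, was lower. Erythroid markers, 3 of 5 measured, summed to 260 and 201 on the MC903 arrays, against 248 and 308 on the vehicle arrays. Slc4a1, the red cell anion exchanger, was lower without overlap, with a difference of -0.61 ± 0.20, and Alas2, of haem synthesis, overlapped. The part of cell composition in the values of the 6 genes was not tested.

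**Figure D5:**
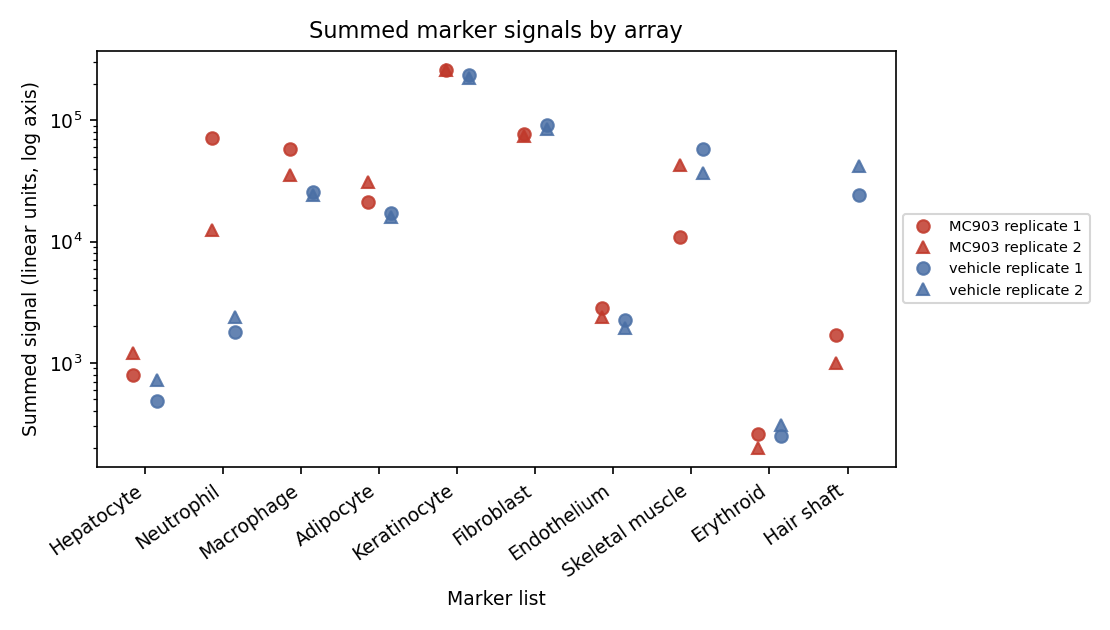
Summed signal of each marker list on every array (linear units on a log axis, red for MC903, blue for vehicle; circles replicate 1, triangles replicate 2). Neutrophil sums were 71866 and 12355 on the MC903 arrays and 1802 and 2391 on the vehicle arrays, and hepatocyte sums stayed between 483 and 1217 on all arrays.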

How the data were processed

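Per the labels' protocols, biotin-labelled RNA from treated skin was hybridised to 3′ expression arrays. The authors deposited linear array intensity values for 45101 probe sets on 4 arrays. The software that made these intensity values is not named in the sources used here. Every array had a mean of 500 once the top and bottom 2% of its probe sets were set aside, so the deposited values had been scaled. They carry no detection calls. Array medians were 90.2 and 99.6 for MC903, and 109 and 99.7 for vehicle. Actin 3′ to 5′ ratios were 1.24 to 1.27 over all arrays, and 0 pairs of arrays held identical values.

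Probe sets were named from the platform annotation, updated through Entrez gene IDs to RefSeq (GRCm38.p6). Of them, 34945 had 1 symbol (34741 matched by ID), 932 had several, 9160 had none and 64 were controls. Only those with 1 symbol were used, which gave 18193 genes. Groups come from the labels. Deposited intensity values were taken as log2(signal + 16), with no filter, and compared in limma 3.58.1 (R 4.3.3) with lmFit and eBayes. The prior variance was constant, p-values were adjusted by Benjamini-Hochberg over all genes, and the threshold was 0.05. The code was tested on simulated data. Promoters were aligned with Biopython 1.88.

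The members and the lists were chosen with earlier results of these data known. Beside the members, genes were named by rule: the members of a list that passed (where under 2 did, the 2 that differed most in size), plus 10 genes of interest and the 3 nearest profiles of each member spanning over 2 log2 units. Genes named outside it, such as paralogs, Alb and other markers beyond the 2 of each list, and Slc40a1, were chosen after their values were seen. Alternatives changed the scaling, the added constant, the filter, the choice of probe set, the prior, the replicate block and the arrays used. The labels do not pair samples by number.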

Additional observations from a re-analysis of the deposited data

How the results depend on the processing

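Over 13 alternatives, the differences of Saa1 (1.73 to 5.60), Saa2 (0.75 to 2.93), Saa3 (1.37 to 4.93), Hp (2.43 to 3.54) and Cp (0.06 to 0.59) kept their direction, and no member had an adjusted p under 0.05. Some did where 2 choices changed together, the prior that follows the signal and an MC903 array left out, as given with the results. Orm1 turned to 0.30 without MC903 replicate 1 and ranged from -0.46 to 0.30 as arrays were left out. The count of genes with a limma adjusted p under 0.05 was 0 as reported, but 3 with median centring, 70 with an added constant of 64, 36 without the dimmest 25% of genes, 12 with the mean of probe sets, 168 with the prior that follows the signal, and 5 with the probe set chosen by mean linear signal, an alternative added after seeing the data, as were the fits that combine the prior that follows the signal with leaving out an array. The cause was not tested. The count of members at least 2-fold higher in all pairings, 2, ranged from 2 to 4 with 1 array left out. Over all genes that count, 211 higher, was 401 with an added constant of 1, 125 with 64, and 415 to 659 with 1 array left out. With the replicate block, 0 genes passed, and adjusted p-values were 0.362 for Saa1, 0.332 for Saa2, 0.308 for Saa3 and 0.194 for Hp. Same-numbered arrays deviated with a correlation of -0.061 over 18193 genes, which gave no sign of pairing but cannot exclude it. The block changed no call, but no gene had passed without it, so this says little about pairing. Signals near the TrpnX range, as for Saa2, the second Saa1 probe set and Il6 in vehicle skin, limit how well a fold is known.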
